A study of Mus musculus with 24 samples.

Results

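Proteases that cut the extracellular matrix, and the inhibitors that hold them back, belong to the secretory programme for which senescent cells are known. Here 9 genes of this kind were followed in mouse liver endothelial cells with lowered or raised P16Ink4a, namely the plasminogen activators Plau and Plat, the matrix metalloproteinases Mmp2, Mmp3, Mmp13 and Mmp14, and the tissue inhibitors of metalloproteinases Timp1, Timp2 and Timp3. They were taken by name from the 56748 genes of the deposited table, and each name matched a single protein-coding gene, so that all 9 members were found. All 9 passed the filter on low counts in each of the 9 comparisons. In the coordinates of the table, whose genome build is not settled (the submitters' processing notes name mm9), Mmp13 (ENSMUSG00000050578) spans chr9:7272514-7283331 and Mmp3 (ENSMUSG00000043613) chr9:7445822-7455975 on the plus strand, Timp1 (ENSMUSG00000001131) spans chrX:20736405-20740974 on the plus strand and Timp2 (ENSMUSG00000017466) chr11:118191895-118246566 on the minus strand.

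Livers of 3-month-old C57BL/6 mice, female according to the methods, were the source of the cells. Cells caught with Cd31 beads (Cd31+ cells) or with Cd146 beads (Cd146+ cells, named sinusoidal by the methods) were cultured and transduced with a lentivirus, and RNA was taken 1 week later. In each population 3 libraries carried P16 shRNA, a hairpin against P16Ink4a, and 3 carried its control, a non-coding hairpin (nc shRNA). A further 3 carried P16, the cDNA fused to a green fluorescent protein, and 3 the same vector without insert (empty vector), which gives 24 libraries in 8 groups. Every group, controls included, thus consists of cultured cells that carry a lentiviral vector, and the sources used here do not say how many animals or cultures stand behind a library, so that p-values measure only the spread between these libraries.

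Urokinase (Plau) and tissue plasminogen activator (Plat) turn plasminogen into plasmin, which degrades fibrin and can activate several latent metalloproteinases. Among these, stromelysin 1 (Mmp3) and collagenase 3 (Mmp13) are secreted, gelatinase A (Mmp2) is secreted in a latent form, and membrane type 1 metalloproteinase (Mmp14) sits on the cell surface, where it activates Mmp2 together with Timp2. The inhibitors bind the active metalloproteinases, and Timp3 differs from the other two in being held by the matrix. In the liver these proteins take part in the remodelling of the sinusoidal wall and in the making and resolution of fibrosis.

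The libraries held 15409767 to 26470392 counted reads, and the 9 members together made up 0.448% to 1.19% of them. Cdkn2a, the gene of P16Ink4a, was at 5.12 to 9.22 CPM (read counts scaled by the effective library size) with P16 shRNA against 36.2 to 76.0 CPM with nc shRNA in Cd31+ cells, and at 7.80 to 25.7 against 94.6 to 196 CPM in Cd146+ cells. With P16 it was at 137 to 330 against 32.5 to 80.0 CPM with empty vector in Cd31+ cells, and at 228 to 834 against 69.6 to 104 CPM in Cd146+ cells, so the targeted gene followed the label in all 24 libraries. Summed over 23 endothelial markers the libraries held 485 to 3004 CPM, and summed over 19 mesenchymal and stellate markers, among them Col1a1, Col1a2, Col3a1 and Acta2, they held 6772 to 51520 CPM. Of the sinusoidal markers, Stab2 reached at most 0.963 CPM and Clec4g at most 0.225 CPM. Stab1 reached 431 CPM, Lyve1 7.54, Fcgr2b 6.80, Oit3 2.72 and Gpr182 1.82 CPM. Of the stellate markers Lrat and Ngfr stayed at or under 0.169 CPM and Reln at or under 0.511 CPM. Cygb reached 118 CPM, Des 51.2, Hand2 36.4 and Lhx2 8.51 CPM. Hepatocyte markers (10 genes) summed to at most 12.97 CPM, lymphoid markers (9 genes) to at most 0.790 CPM and macrophage markers (18 genes) to 21.1 to 460 CPM. Cholangiocyte markers (7 genes) summed to 38.5 to 983 CPM, with Spp1 at 3.44 to 966 CPM and Sox9 at 2.245 to 134 CPM. The 3 Cd146+ libraries numbered 3 stood apart, with Pecam1 (the gene of Cd31) at 4.05 to 10.1 CPM and Mcam (the gene of Cd146) at 3.22 to 11.6 CPM, where the other 21 libraries had 61.5 to 281 and 32.2 to 391 CPM. Although the mice are described as female, 16 libraries held the Y-linked transcript Ddx3y (52.1 to 171 CPM) and next to no Xist, while 8 held Xist (328 to 761 CPM) and no Ddx3y. In Cd31+ cells the libraries with Xist were the 2 numbered 5, and in Cd146+ cells they were the 6 numbered 4 to 6.

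Between genes, levels were compared per length, by the FPKM values that the authors deposited. The inhibitors were the most abundant members: together they made up 76.6% to 91.1% of the summed FPKM of the 9 members in every library. In Cd31+ cells with nc shRNA Timp2 led with 586 ± 100 FPKM (SD, n = 3), before Timp3 with 313 ± 61.7, Timp1 with 248 ± 57.4 and Mmp14 with 117 ± 24.1. Mmp2 followed with 56.6 ± 20.8 FPKM, then the plasminogen activators Plau with 16.8 ± 3.60 and Plat with 13.1 ± 2.12, then Mmp3 with 3.65 ± 2.91 and last Mmp13 with 0.785 ± 0.767 FPKM. In this group 3 of the 8 neighbouring pairs in that order overlapped in their libraries, namely Timp3 and Timp1, Plau and Plat, and Mmp3 and Mmp13. The order differed between groups among the inhibitors (ranks 1 to 3) and lower down, where Mmp3 ranked 8 in 5 groups and 7, 6 and 5 in Cd146+ cells with nc shRNA, P16 shRNA and P16. Timp2 ranked first in 7 of the 8 groups and Timp1 in the remaining group, Cd146+ cells with P16 shRNA, where its 731 ± 193 FPKM lay apart from the 508 ± 34.7 FPKM of Timp2. Mmp13 was last in all 8 groups, and Mmp14 stood directly below the inhibitors in all 8.

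**Figure D1:**
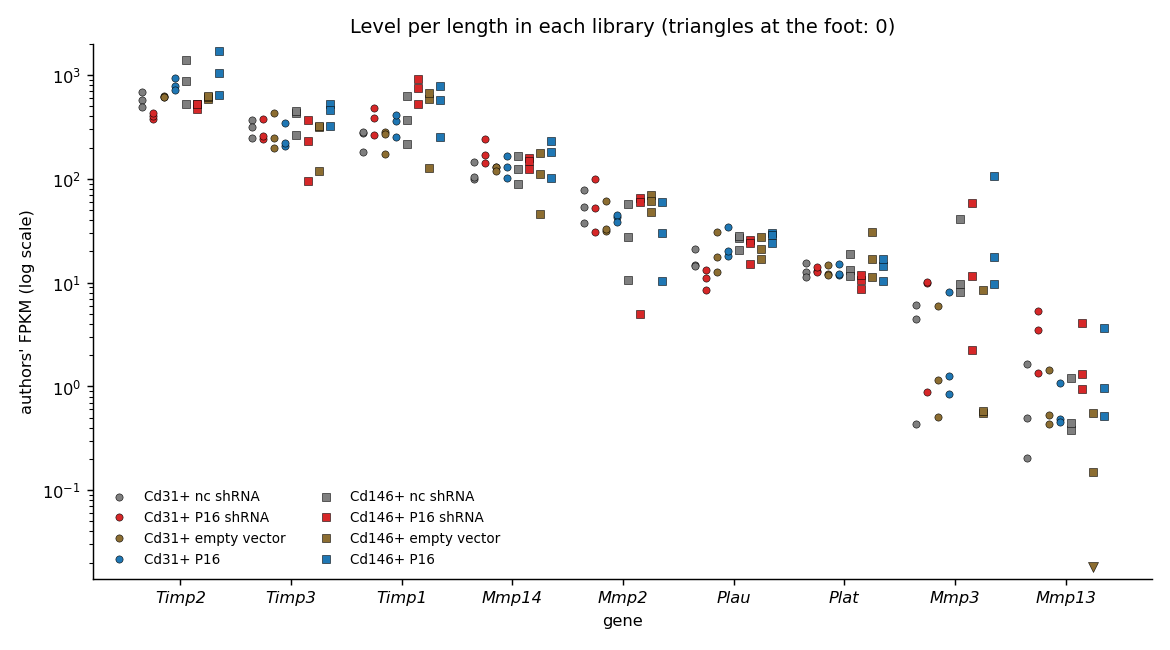
FPKM of the authors (log scale) of each member in each of the 24 libraries, ordered by the mean in Cd31+ cells with nc shRNA, with circles for Cd31+ and squares for Cd146+ cells and a color for each construct. The 3 inhibitors and Mmp14 lie at the top, Mmp3 spreads most among libraries, and the 1 triangle at the foot is the Cd146+ empty vector library with no Mmp13 read.

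The first question was what silencing of P16Ink4a did to these genes in Cd31+ cells. Timp2 and Plau lay lower with P16 shRNA in every library, and the values of Mmp13, Mmp14 and Timp1 were higher on average with overlapping groups. None of the 9 members passed an adjusted p under 0.05 in the edgeR quasi-likelihood test without replicate numbers, where 1.3% of all genes did. At an unadjusted p under 0.05 there were 4 of 9 (Plau, Mmp13, Mmp14 and Timp2), against 19.8% of all genes, and 2 of 9 did not overlap between the groups (Plau and Timp2), against 27.4% of all genes. Libraries of the same number deviated together, and with the number as a term in the fit (12 libraries of the population) 6 of 9 members passed the adjusted threshold, against 16.8% of all genes. Those 6 were Plau and Timp2, which fell, and Mmp3, Mmp13, Mmp14 and Timp1, which rose. Within the 6 libraries of both groups alone, the same term gave 5 of 9, against 18.8% of all genes, Mmp14 being the one lost (adjusted p = 0.0627). The count rested on few pairs of libraries: without pair 1, 2 or 3 it was 1 (Mmp13), 4 and 4, against 5.45%, 8.11% and 5.62% of all genes. The median log2 fold change of the 9 members was 0.12, and that of all genes 0.00.

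Among the plasminogen activators, Plau was at 35.6, 35.2 and 50.5 CPM with nc shRNA (numbers 1, 2 and 3) and at 20.5, 26.6 and 32.2 CPM with P16 shRNA. Each silenced library lay below all 3 controls. The log2 fold change of Plau was -0.61 ± 0.21 (SE; edgeR adjusted p = 0.184), and -0.62 ± 0.11 with the replicate number (adjusted p = 0.00316). Plat, the other activator, was at 79.9, 71.8 and 98.2 CPM with nc shRNA and at 82.6, 81.6 and 89.7 CPM with P16 shRNA. Its groups overlapped and its log2 fold change was 0.03 ± 0.13 (edgeR adjusted p = 0.933). Thus the activator with the lower per-length level after silencing was Plau (10.9 ± 2.44 FPKM) rather than Plat (13.3 ± 0.710 FPKM), while their libraries overlapped.

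Of the metalloproteinases, Mmp13 was rare. It was at 4.49, 0.559 and 1.35 CPM with nc shRNA and at 14.5, 3.66 and 9.52 CPM with P16 shRNA, so that each silenced library was above its own numbered control while the groups overlapped. Its log2 fold change was 2.15 ± 0.84 (edgeR adjusted p = 0.233), and 2.27 ± 0.26 with the replicate number (adjusted p = 0.000182). Leaving out 1 library at a time moved the former between 1.65 (without P16 shRNA number 1) and 3.27 (without nc shRNA number 1). Mmp3, which cleaves many matrix proteins and activates other pro-metalloproteinases, was at 8.10, 0.791 and 11.2 CPM with nc shRNA and at 18.3, 1.63 and 18.8 CPM with P16 shRNA. Libraries numbered 2 were low in both groups, by far more than the groups differed. The log2 fold change of Mmp3 was 0.97 ± 1.10 (adjusted p = 0.679), and 0.96 ± 0.17 with the replicate number (adjusted p = 0.00242). Mmp14 was at 608, 642 and 878 CPM with nc shRNA and at 1488, 874 and 1039 CPM with P16 shRNA. The lowest silenced library lay just under the highest control, and pair 1 showed the largest change. Its log2 fold change was 0.68 ± 0.23 (adjusted p = 0.178), and 0.67 ± 0.18 with the replicate number (adjusted p = 0.0231). Mmp2, which Mmp14 activates, was at 270, 129 and 183 CPM against 342, 107 and 182 CPM, a log2 fold change of 0.12 ± 0.47 (adjusted p = 0.916). Here the numbers differed and the constructs hardly did.

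Of the inhibitors, Timp1 had a positive and Timp2 a negative log2 fold change, and both passed only with the replicate number. Timp1 was at 251, 165 and 256 CPM with nc shRNA and at 439, 239 and 353 CPM with P16 shRNA, each silenced library above its numbered control. Its log2 fold change was 0.62 ± 0.26 (edgeR adjusted p = 0.256), and 0.60 ± 0.17 with the replicate number (adjusted p = 0.0339). Timp2 was at 2259, 1959 and 2749 CPM with nc shRNA and at 1521, 1624 and 1715 CPM with P16 shRNA. No silenced library reached any control. The log2 fold change of Timp2 was -0.51 ± 0.15 (adjusted p = 0.135), and -0.51 ± 0.11 with the replicate number (adjusted p = 0.00704). Timp3 was at 3067, 2062 and 2660 CPM against 3157, 2028 and 2165 CPM, a log2 fold change of -0.08 ± 0.22 (adjusted p = 0.887). For single genes the exact two-sided permutation test over 3 against 3 libraries cannot go below p = 0.1, and it gave 0.1 for Plau and for Timp2.

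In the same 6 libraries the endothelial markers summed to 485 to 913 CPM with P16 shRNA and to 717 to 1413 CPM with nc shRNA, with Mcam at 32.2 to 63.8 against 77.5 to 155 CPM. Mesenchymal and stellate markers summed to 24800 to 51520 against 20780 to 38100 CPM. Of the tested genes of these lists, 15 of 19 endothelial markers had a negative and 12 of 16 mesenchymal and stellate markers a positive log2 fold change. At an unadjusted p under 0.05 there were 1 lower (Mcam) and 1 higher (Flt4, 56.8 against 25.6 CPM) among the endothelial markers. Among the mesenchymal and stellate markers 2 were higher and 0 lower. Of all genes 19.8% passed that threshold, a share that neither list reached. In bulk RNA, fewer cells of a type and less RNA per cell cannot be told apart, and the part of these markers in the changes of the members was not tested. All 6 libraries were of the class with Ddx3y.

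**Figure D2:**
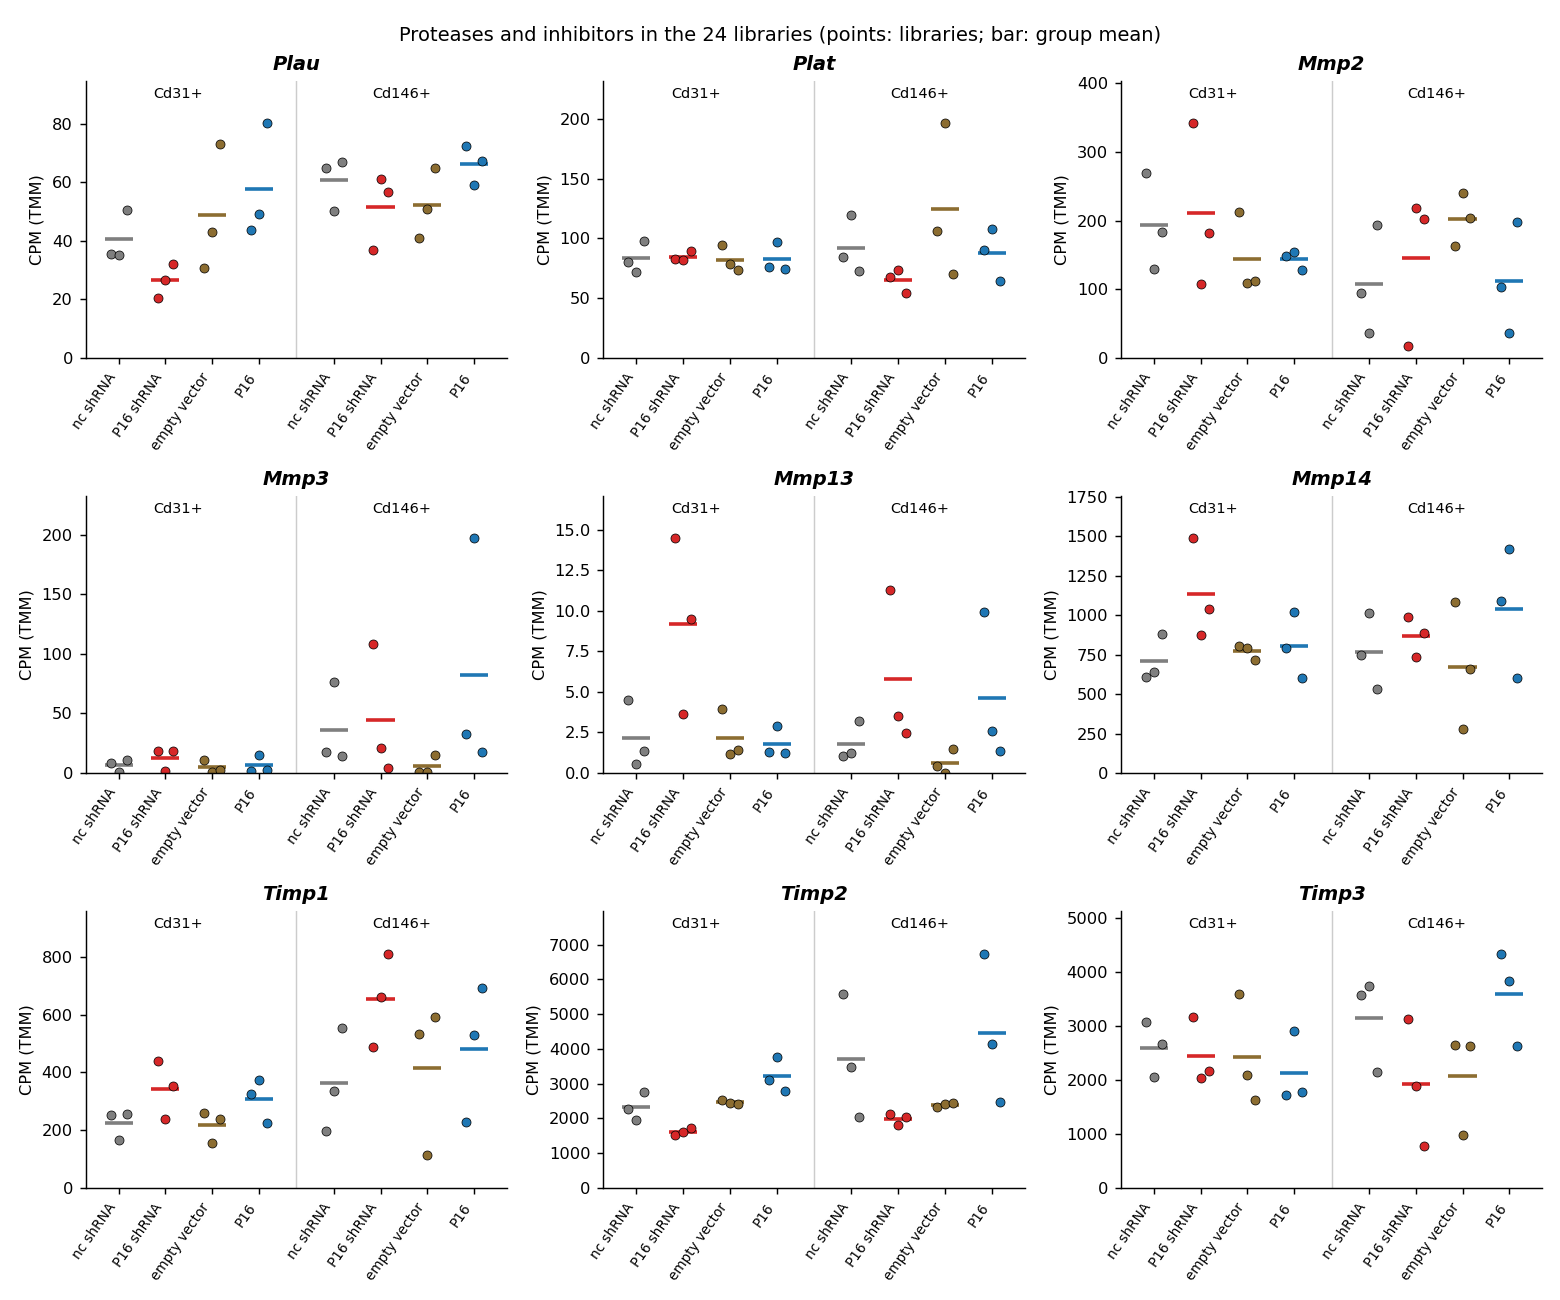
Level of each member in CPM (TMM-normalized, linear axes from 0) in the 24 libraries, by construct and population, with a point for each library in the order of the replicate numbers and a bar for the group mean. In Cd31+ cells the 3 points of P16 shRNA lie under the 3 points of nc shRNA for Plau and Timp2, and in Cd146+ cells the spread within groups is wider for most members.

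In Cd146+ cells the question of silencing was asked again. Without replicate numbers 5 of the log2 fold changes were positive and 4 negative, the sign differing from that in Cd31+ cells for Plat alone. The spread between libraries was wider. None of the 9 members passed an adjusted p under 0.05 (0% of all genes did), 1 of 9 had an unadjusted p under 0.05 (Timp2, against 11.6% of all genes), and in none of them were the groups apart (against 20.5% of all genes). With the replicate number as a term the count stayed at 0 of 9, against 8.33% of all genes over 12 libraries and 0% within both groups alone. Only numbers 3 and 5 were present in both groups.

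Timp2 was at 5588, 3478 and 2040 CPM with nc shRNA (numbers 1, 3 and 5) and at 2134, 1816 and 2042 CPM with P16 shRNA (numbers 3, 5 and 6). The silenced libraries were close together and the controls were not. Its log2 fold change was -0.89 ± 0.36 (edgeR adjusted p = 0.427), and -0.43 ± 0.14 with the replicate number (adjusted p = 0.0878). Timp1 was at 198, 335 and 555 CPM with nc shRNA and at 487, 659 and 811 CPM with P16 shRNA, a log2 fold change of 0.85 ± 0.40 (adjusted p = 0.449), and 0.34 ± 0.11 with the replicate number (adjusted p = 0.0997). Here the lowest silenced library lay under the highest control. Timp3 was at 3570, 3743 and 2140 CPM against 3121, 1892 and 771 CPM, with overlap (log2 fold change -0.71 ± 0.50, adjusted p = 0.573). With the replicate number the log2 fold change of Timp3 was -0.21 ± 0.11 (edgeR adjusted p = 0.251).

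Mmp13 was at 1.04, 1.21 and 3.21 CPM with nc shRNA and at 11.3, 3.54 and 2.49 CPM with P16 shRNA, with a log2 fold change of 1.66 ± 0.73 (edgeR adjusted p = 0.439). The high value belonged to number 3, a library low in Pecam1 and Mcam. Without the libraries numbered 3 the log2 fold change was 0.51 ± 0.66, and leaving out 1 library at a time gave 0.74 (without P16 shRNA number 3) to 2.35 (without nc shRNA number 5). Mmp3 was at 17.6, 75.9 and 14.5 CPM against 108, 20.7 and 4.01 CPM, and again both libraries numbered 3 were the highest of their group. Its log2 fold change of 0.30 ± 1.16 (adjusted p = 0.931) turned to -0.37 without the libraries numbered 3 (adjusted p = 0.8603). For Mmp2 the same libraries were the lowest, at 36.7 CPM with nc shRNA and 17.3 CPM with P16 shRNA, where the other 4 libraries had 93.8 to 218 CPM. Its log2 fold change was 0.44 ± 0.95 (edgeR adjusted p = 0.868). With the replicate number it turned to -0.35 ± 0.30 (12 libraries) and -0.43 ± 0.34 (both groups alone). Mmp14 was at 750, 1012 and 530 CPM against 989, 735 and 886 CPM. Plau was at 65.0, 50.1 and 66.8 CPM against 37.0, 61.0 and 56.8 CPM, and Plat at 84.5, 120 and 72.4 CPM against 68.1, 73.5 and 54.4 CPM. Each of these 3 overlapped between the groups, with log2 fold changes of 0.19 ± 0.27, -0.23 ± 0.24 and -0.49 ± 0.24 (adjusted p = 0.789, 0.708 and 0.454).

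Over the 5 same-numbered pairs of both populations, the direction was shared for several members. Plau (-0.79 to -0.13 on the log2 CPM scale) and Timp2 (-0.71 to -0.17) were lower with P16 shRNA in 5 of 5 pairs. Timp1 (0.25 to 0.80), Mmp3 (0.51 to 1.17) and Mmp13 (0.14 to 3.12) were higher in 5 of 5, and Mmp14 in 4 of 5. Timp3 was lower in 4 of 5 pairs by at most 0.30, while Plat and Mmp2 were split 3 to 2. The share of all genes with a single direction over these pairs was not determined, so the counts only describe these 9 genes. The pair numbered 3 of the Cd146+ cells gave the lowest values of Plat and Mmp2 and the highest of Mmp13. The effect of P16 shRNA did not differ between the populations at an unadjusted p under 0.05 for any of the 9 members (1.2% of all genes, and 0% at an adjusted p), with for example -0.37 ± 0.42 for Timp2 and -0.46 ± 1.41 for Mmp13 as Cd146+ minus Cd31+ (edgeR adjusted p = 1 for both). Over the 9 members the SE of this difference ran from 0.40 to 1.95, so that differences of the size of the effects were not detectable for most of them.

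**Figure D3:**
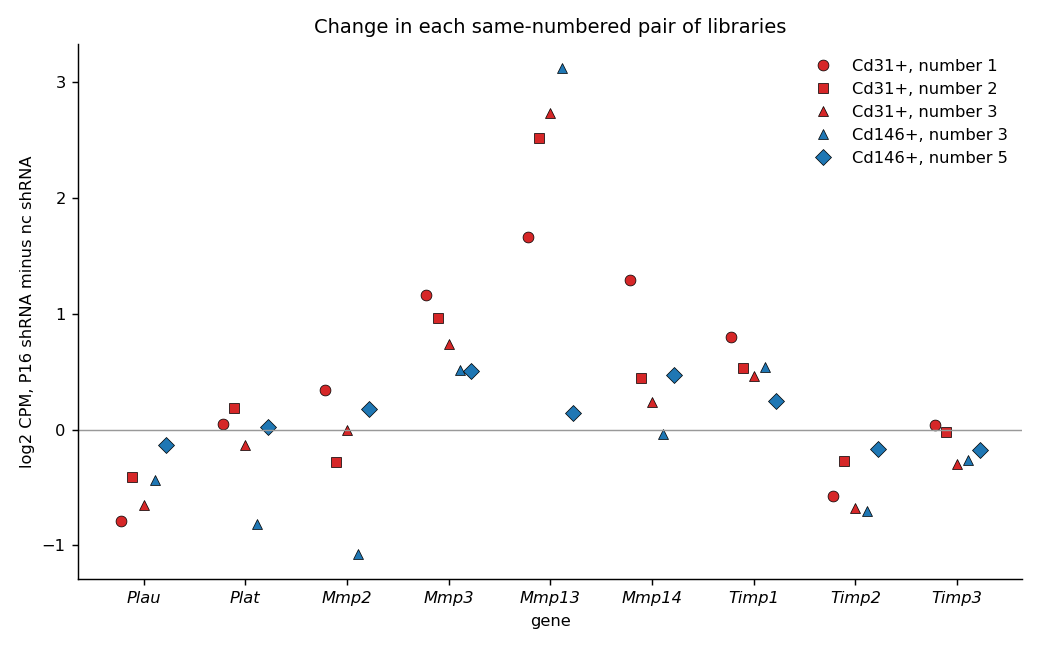
Difference in log2 CPM (P16 shRNA minus nc shRNA) of each member in the 5 pairs of libraries with the same number, 3 of Cd31+ cells in red and 2 of Cd146+ cells in blue. All 5 points lie below 0 for Plau and Timp2 and above 0 for Mmp3, Mmp13 and Timp1.

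Since Timp1 and Timp2 went in opposite directions, their ratio was formed from the FPKM values in each library. Because the genes were chosen by these same changes, the ratio restates the changes and is no separate evidence. In Cd31+ cells it was 0.488, 0.369 and 0.409 with nc shRNA and 1.27, 0.645 and 0.904 with P16 shRNA, and thus higher in each silenced library. With empty vector it was 0.449, 0.280 and 0.437, and with P16 it was 0.457, 0.432 and 0.353, which overlap. In Cd146+ cells the ratio was 0.155, 0.422 and 1.19 with nc shRNA and 1.00, 1.59 and 1.74 with P16 shRNA. Both same-numbered pairs were higher with P16 shRNA, 1.00 against 0.422 for number 3 and 1.59 against 1.19 for number 5, while the groups overlapped. Libraries numbered 5 were above 1 with all 4 constructs, and those numbered 1 and the empty vector library numbered 4 had 0.148 to 0.209.

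**Figure D4:**
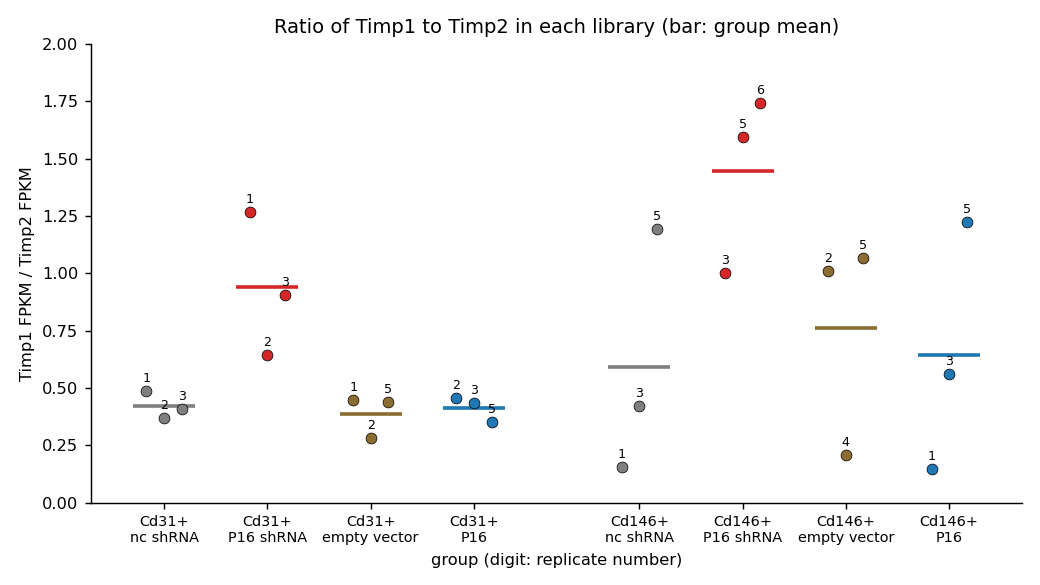
Ratio of Timp1 to Timp2 (FPKM over FPKM, no unit) in each of the 24 libraries, by population and construct, with the replicate number above each point and a bar for the group mean. In Cd31+ cells the P16 shRNA libraries (0.645 to 1.27) lie above all other 9 libraries, and in Cd146+ cells values spread from 0.148 to 1.74. The genes of the ratio were chosen by their changes in these same libraries.

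The second question was what raised P16Ink4a did. In Cd31+ cells none of the 9 members passed an adjusted p under 0.05 (0% of all genes did) and none an unadjusted p under 0.05 (3.73% of all genes), and the groups were apart for 1 of 9 (Timp2, against 10.7% of all genes). Timp2 was at 2542, 2451 and 2411 CPM with empty vector (numbers 1, 2 and 5) and at 3115, 3779 and 2804 CPM with P16 (numbers 2, 3 and 5). Every library with P16 lay above every library without. The log2 fold change was 0.39 ± 0.17 (edgeR adjusted p = 0.947), and 0.31 with the replicate number (adjusted p = 0.386). Timp1 was at 260, 156 and 240 CPM against 325, 372 and 226 CPM, a log2 fold change of 0.49 ± 0.25 (adjusted p = 0.947), with the groups overlapping through number 5. The other 7 members had log2 fold changes between -0.25 (Mmp13) and 0.42 (Mmp3), with SEs of 0.16 (Plat) to 1.17 (Mmp3).

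In Cd146+ cells P16 gave larger differences with larger errors. Again 0 of 9 members passed the adjusted threshold (0% of all genes), 1 of 9 had an unadjusted p under 0.05 (Mmp3, against 3.53% of all genes), and 2 of 9 were apart (Mmp3 and Timp2, against 8.55% of all genes). Mmp3 was at 1.00, 1.05 and 15.03 CPM with empty vector (numbers 2, 4 and 5) and at 32.5, 197 and 17.4 CPM with P16 (numbers 1, 3 and 5). Within the one shared number, 5, it was 15.03 and 17.4 CPM. The log2 fold change of 3.81 ± 1.49 (edgeR adjusted p = 0.986) became 2.14 without the libraries numbered 3 and 0.66 with the replicate number as a term, where only number 5 is present in both groups. Timp2 was at 2323, 2426 and 2438 CPM against 6742, 4146 and 2476 CPM, a log2 fold change of 0.90 ± 0.38 (adjusted p = 0.986), and 0.11 with the replicate number. Number 1 held the high value here as it did with nc shRNA (5588 CPM). Mmp13 was at 0.402, 0 and 1.49 CPM against 9.93, 2.62 and 1.38 CPM, a log2 fold change of 2.87 ± 1.42 (adjusted p = 0.986), and 0.81 ± 1.60 with the replicate number. Without 1 library at a time it was 1.63 (without P16 number 1) to 4.48 (without empty vector number 5). A count of 0 allows up to 0.144 CPM in that library (3 counts, for counting error only). The same empty vector library, numbered 4, also had the lowest Mmp14 (276 CPM) and Timp1 (116 CPM) and the highest Plat (197 CPM) of all 24 libraries. The remaining 6 members overlapped between the groups, with log2 fold changes from -0.84 ± 0.59 (Mmp2) to 0.79 ± 0.43 (Timp3).

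The effect of P16 was compared between the populations as well. At an unadjusted p under 0.05 it differed for 1 of 9 members (Mmp13, 3.13 ± 1.46 as Cd146+ minus Cd31+, edgeR adjusted p = 0.989), against 3.82% of all genes, and for 0 of 9 after adjustment (0% of all genes). For Timp2 the difference was 0.51 ± 0.42 (adjusted p = 0.989). With the replicate number in the model these values were 0.61 ± 1.36 for Mmp13, whose adjusted p was then 1, and -0.19 ± 0.21 for Timp2.

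**Figure D5:**
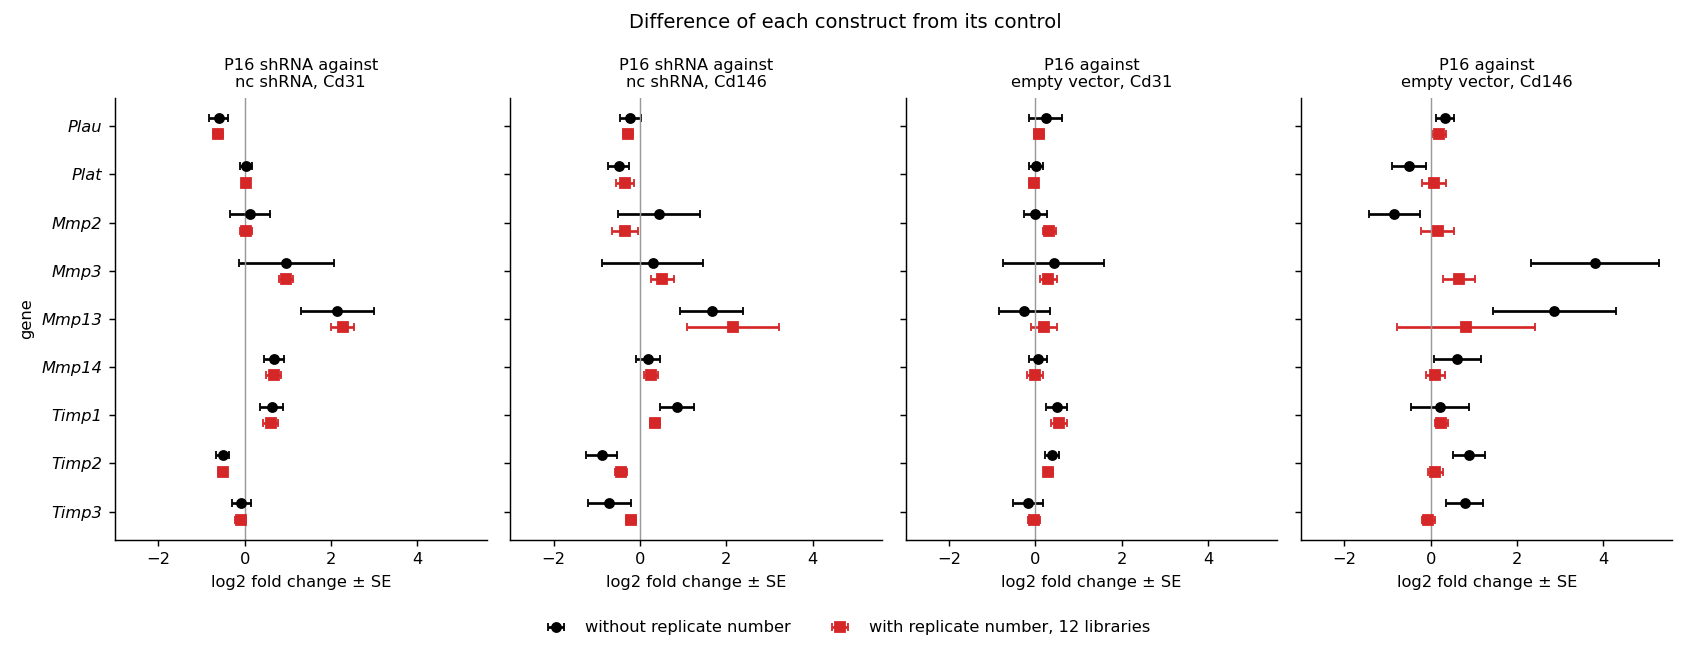
Log2 fold change ± SE of each member for each construct against its own control, in 4 panels, without the replicate number (black circles) and with it in a fit of the 12 libraries of the population (red squares). In Cd31+ cells with P16 shRNA both fits give like values and the second has smaller errors, as for Mmp3 (0.97 ± 1.10 and 0.96 ± 0.17), while in Cd146+ cells with P16 the values of Mmp3 and Timp2 shrink.

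The control constructs were set against each other to see how far the members differ without any change aimed at P16Ink4a. Setting nc shRNA against empty vector, 0 of 9 members reached an unadjusted p under 0.05 among Cd31+ libraries (3.16% of all genes) and 0 of 9 among Cd146+ libraries (3.99%), with none after adjustment (0% of all genes in each). In Cd146+ cells the log2 fold changes ran from -0.91 (Mmp2) to 2.63 (Mmp3), beside -0.84 to 3.81 for P16 against the same empty vector libraries, while in Cd31+ cells they ran from -0.28 (Plau) to 0.52 (Mmp3). The Cd146+ libraries with nc shRNA and with P16 were both numbered 1, 3 and 5, and those with empty vector 2, 4 and 5. This contrast of Cd146+ controls thus mixes construct and number. Within number 5, the change of Mmp3 with nc shRNA was -0.0484 on the log2 CPM scale. Between the populations, over the 12 control libraries, none of the 9 members had an unadjusted p under 0.05 (17.5% of all genes), none an adjusted p (0%), and none was apart (1.66%). Timp1 came nearest with a log2 fold change of 0.81 ± 0.37 in Cd146+ against Cd31+ cells (edgeR adjusted p = 0.288), from 156 to 260 CPM in Cd31+ and 116 to 593 CPM in Cd146+ control libraries. Timp1 lies on chromosome X, and libraries with Xist were unevenly spread over these controls. In Cd31+ cells they were empty vector number 5 alone. In Cd146+ cells they were empty vector numbers 4 and 5 and nc shRNA number 5. Mmp3 had 1.37 ± 1.00 and Mmp13 -0.98 ± 0.81, with library ranges that overlapped.

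Within Cd146+ cells Mmp2 and Timp3 were apart between the libraries with Xist and those with Ddx3y, which coincide with the numbers 4 to 6 and 1 to 3. Mmp2 was at 193 to 240 CPM in the 6 libraries with Xist and at 17.3 to 163 CPM in the 6 with Ddx3y. Of the latter, those numbered 3 had 17.3 to 36.7 CPM. Timp3 was at 771 to 2624 against 2644 to 4338 CPM. Timp2 was at 1816 to 2476 against 2134 to 6742 CPM, and it and the remaining members overlapped. The share of all genes apart by class was not determined. In Cd31+ cells Mmp2 was not higher in the 2 libraries with Xist (111 and 128 CPM) than in the 10 with Ddx3y (107 to 342 CPM). The class and the replicate number go together, so they cannot be told apart. In Cd146+ cells Xist was held by number 5 with nc shRNA and numbers 5 and 6 with P16 shRNA. It was held by numbers 4 and 5 with empty vector and number 5 with P16. The class was thus uneven between each construct and its control. With a term for the class in the model, 0 of 9 members passed the adjusted threshold in the comparisons of Cd146+ cells, as without it.

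Mmp3 and Mmp13 belong to the metalloproteinase cluster of chromosome 9, and their promoters are known for a binding site of the AP-1 factors (Fos and Jun). The bases before the transcript start are shown for these genes, which rose under silencing in Cd31+ cells with the replicate number, and for Timp1 and Timp2, which moved in opposite directions. The sequences are the 120 bases before the RefSeq start in GRCm38.p6, read 5′ to 3′ on the gene's strand, with capitals for the AP-1 word TGANTCA, the TATA word TATAAA and the GC box word GGGCGG, searched on both strands (CCGCCC on the other). They lie at chr9:7445702-7445821 (+) for Mmp3, chr9:7272394-7272513 (+) for Mmp13, chrX:20870046-20870165 (+) for Timp1 and chr11:118355412-118355531 (-) for Timp2.
Mmp3: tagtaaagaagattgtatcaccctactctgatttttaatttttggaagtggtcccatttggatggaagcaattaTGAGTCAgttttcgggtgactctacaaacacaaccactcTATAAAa
Mmp13: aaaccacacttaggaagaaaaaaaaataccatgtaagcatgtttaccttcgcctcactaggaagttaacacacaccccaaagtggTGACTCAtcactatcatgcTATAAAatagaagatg
Timp1: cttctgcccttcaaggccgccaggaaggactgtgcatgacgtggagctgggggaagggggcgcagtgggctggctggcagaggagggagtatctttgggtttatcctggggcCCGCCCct
Timp2: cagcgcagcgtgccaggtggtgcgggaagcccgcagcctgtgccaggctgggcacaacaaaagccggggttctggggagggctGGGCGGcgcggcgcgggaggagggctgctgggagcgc

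Promoters were at hand for 6 of the 9 members, the other three being Plau, Plat and Mmp2. The AP-1 word was in the window of Mmp3 and Mmp13, starting 46 and 35 bases before the transcript start, and in 3.41% of all 32851 promoters of this length. The TATA word was in the same 2 windows and in 6.34% of all promoters. The GC box word was in those of Mmp14, Timp1, Timp2 and Timp3 and in 26.5% of all promoters, and G and C made up 35.8% and 37.5% of the bases for Mmp3 and Mmp13, against 54.2% to 75% for the other 4. A match of letters is a description of these windows and not a bound site. Of the 25 transcription factors listed for these promoters (Fos, Jun, Ets, NF-kB and Sp families and others), 19 had a negative and 6 a positive log2 fold change with P16 shRNA in Cd31+ cells, 6 of them lower and 0 higher at an unadjusted p under 0.05, beside 19.8% of all genes, and none at an adjusted p. Sp1 was at -0.59 ± 0.10 (edgeR adjusted p = 0.0521) and Fosb at -1.06 ± 0.22 (adjusted p = 0.0720). In Cd146+ cells 20 of 25 were negative, 4 of them lower and 0 higher at an unadjusted p under 0.05, beside 11.6% of all genes. None passed at an adjusted p. Fos was at -1.82 ± 0.68 there (edgeR adjusted p = 0.422), with overlapping groups.

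The wider system of proteases was read from lists of genes. In Cd31+ cells with P16 shRNA, of 14 tested genes of the plasminogen system 2 were higher and 2 lower at an unadjusted p under 0.05, near the 19.8% of all genes, and none passed the adjusted threshold. Thbd, the thrombin receptor thrombomodulin, was at 410 against 202 CPM (log2 fold change 1.03 ± 0.23, edgeR adjusted p = 0.0888), and empty vector libraries had 374 CPM. In Cd146+ cells Lrp1, the endocytic receptor that clears protease and inhibitor complexes, was at 1219 against 2731 CPM (-1.16 ± 0.39, adjusted p = 0.403). Its groups were apart, as were those of Thbd in Cd31+ cells. With P16, F3 (tissue factor) was at 528 against 197 CPM in Cd146+ cells (1.42 ± 0.48, adjusted p = 0.986), and nc shRNA libraries had 396 CPM.

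Of 11 other matrix metalloproteinases tested in Cd31+ cells with P16 shRNA none was higher and 2 were lower at an unadjusted p under 0.05 (Mmp12 and Mmp24, near the 19.8% of all genes), both rare at 5.69 and 1.19 CPM in the controls. In Cd146+ cells 1 of 12 was higher (Mmp8) and 3 lower, beside 11.6% of all genes, among them Mmp11 at 25.3 against 49.6 CPM (-0.97 ± 0.23, edgeR adjusted p = 0.382). Mmp10, another stromelysin, was at 21.7 against 2.53 CPM with P16 in Cd146+ cells (3.08 ± 1.69, edgeR adjusted p = 0.986). Mmp3 was also high there, and Mmp10 was at 15.5 CPM with nc shRNA. Among the inhibitors and activators of metalloproteinases, Pcsk6, a proprotein convertase, was at 79.4 against 173 CPM in Cd31+ cells (-1.12 ± 0.30, adjusted p = 0.125) and at 136 against 278 CPM in Cd146+ cells (-1.03 ± 0.27, adjusted p = 0.382) with P16 shRNA.

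In Cd31+ cells with P16 shRNA 2 of the 101 tested genes of these lists passed the adjusted threshold without replicate numbers, beside 1.3% of all genes, and none did in the other 3 comparisons of a construct. With any 1 of the 3 P16 shRNA libraries left out no gene passed (0% of all genes), so both calls end. Adam10, a sheddase of the cell surface, fell from 436 to 127 CPM (-1.77 ± 0.11, edgeR adjusted p = 0.00444), and the lysosomal carboxypeptidase Ctsa fell from 267 to 160 CPM (-0.74 ± 0.11, adjusted p = 0.0363). In Cd146+ cells Adam10 was at 111 against 351 CPM (-1.67 ± 0.31, adjusted p = 0.382) and Ctsa at 195 against 350 CPM (-0.84 ± 0.26, adjusted p = 0.385). The following counts are for P16 shRNA in Cd31+ cells at an unadjusted p under 0.05, which 19.8% of all genes reached. Of 15 tested ADAM and ADAMTS genes 3 were higher and 3 lower. Adamts12, one of the higher, was at 250 against 86.1 CPM (1.54 ± 0.38, edgeR adjusted p = 0.111). Of 14 cathepsins and cystatins 1 was higher and 1 lower (Ctsa), and of 8 inhibitors and activators of metalloproteinases 0 were higher and 1 lower (Pcsk6). Among 14 substrates of the matrix 2 were higher and 1 lower, and Col3a1, a substrate of collagenases, was at 6966 against 3766 CPM (0.89 ± 0.28, adjusted p = 0.156).

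Genes with the most similar pattern over the 24 libraries were looked up among 12848 genes, as Pearson's r of log2 CPM, a description in which libraries share number and population. Plau was nearest to Eng, an endothelial co-receptor (r = 0.907), Mmp3 to Dcn, a fibroblast proteoglycan (0.957), Mmp2 to Meis2 (0.904) and Mmp14 to Tmem119 (0.880). Timp1 was nearest to Mcts1 (0.895) and then to Serpinb2, an inhibitor of plasminogen activators (0.845), Timp2 to Fam20c (0.939), Plat to Nudcd3 (0.852) and Mmp13 to Gda (0.858). Among the members themselves the highest r was 0.634 (Mmp13 and Mmp14) and then 0.629 (Mmp3 and Timp3), and Timp1 and Timp2 had -0.221. No member was among the 3 nearest genes of another.

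Other annotated genes overlap 5 of the members, and since the sources leave the strand setting of the counting unsettled, reads of opposite genes cannot be told apart. The counts of the overlapping gene were low beside those of the member: at most 155 for Syn1 against at least 2519 for Timp1, at most 108 for Syn3 against at least 15762 for Timp3, at most 214 for Cep295nl against at least 28359 for Timp2, at most 562 for a long non-coding RNA in Mmp14 against at least 6018, and at most 36 for Gm45472 against at least 398 for Mmp2.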

How the data were processed

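The deposited table gives, per the file headers, raw read counts per gene, the FPKM values that the authors computed from them, gene lengths in bases, and columns of the authors' own comparisons (fold changes and p-values), which were not used. The submitters' processing notes name fastp and mm9, and the aligner and counter are not given in the sources used here. Only 1472 of 52073 genes (2.83%) had the same start and end as in GRCm38, so no coordinate of the table was joined to a genome.

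Counts of 24 libraries were tested with edgeR 4.0.16 in R 4.3.3 (filterByExpr, TMM, robust quasi-likelihood F test, Benjamini-Hochberg adjustment over all tested genes, threshold 0.05), with only the 2 groups compared in a fit, all 12 control libraries for the populations, and all 24 for differences between effects. The SE is the absolute log2 fold change over the square root of F. Levels are TMM-scaled CPM. Single genes were also tested by an exact two-sided permutation test. Alternatives were DESeq2 1.42.0 (size factors, Wald test), other filters, each library left out, one fit over a population and the replicate number as a block. Same-numbered libraries of a population deviated from their group means together (lowest correlation 0.343 over 13 pairs in Cd31+ and 0.373 over 10 pairs in Cd146+ cells), so the numbers, which come from the labels, were taken as pairs. Scripts were tested on simulated data.

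All 9 members were named in each comparison, with Cdkn2a. From the lists (plasminogen system, other metalloproteinases, their inhibitors and activators, ADAM and ADAMTS proteases, cathepsins and cystatins, matrix substrates, transcription factors) genes with an adjusted p under 0.05 or among the 3 smallest p were eligible, and for each member the 3 genes of highest correlation. Members and lists were chosen with earlier results of these data known. Promoters are from RefSeq (GRCm38.p6). Counting intervals and floors cover counting error only. Results for some genes eligible under this rule are not reported here.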

Additional observations from a re-analysis of the deposited data

How the results depend on the processing

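Of the comparisons, only P16 shRNA against nc shRNA in Cd31+ cells changed its count of members past the adjusted threshold: 0 in the test without replicate numbers (1.3% of all genes called), 4 with all genes of at least 1 count (3.73%), 2 with the DESeq2 Wald test (Mmp13 and Timp2, 2.55%), 6 and 5 with the replicate block over 12 libraries and over both groups (16.8% and 18.8%), and 1, 4 and 4 when pair 1, 2 or 3 was left out of the blocked fit (5.45%, 8.11% and 5.62%). In the other 8 comparisons the count was 0 under each alternative run, and leaving out single libraries gave 0 throughout. The replicate block was run in 7 of these 8 and changed no adjusted call of a member there. It did change calls of other genes, most in P16 shRNA against nc shRNA in Cd146+ cells (8.33% of all genes over 12 libraries, 0% over both groups alone and 0% without the block). It was not run between the populations, nor within 2 groups alone for P16 or nc shRNA against empty vector in Cd146+ cells. The blocked fits with a pair left out, the term for Xist or Ddx3y and the removal of the Cd146+ libraries numbered 3 were chosen after seeing the data.

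Signs turned for log2 fold changes near 0 or with wide errors, and the cause was not tested. With P16 shRNA in Cd31+ cells this held for Mmp2 at -0.14 (block, pair 1 left out), Plat at -0.0448 (pair 2) and Timp3 at 0.0142 (pair 3). With P16 in Cd31+ cells Mmp2 was at -0.00849 with all genes of at least 1 count, Plat at -0.04 and Mmp13 at 0.20 with the block over 12 libraries, and Plat at -0.00644 and Mmp14 at -0.12 with the block over both groups. With P16 shRNA in Cd146+ cells Mmp2 was at -0.35 and -0.43 with the 2 blocks and at -0.89 with the term for Xist or Ddx3y, and Mmp3 at -0.37 without the libraries numbered 3. With P16 in Cd146+ cells the block, which rests on number 5, gave 0.0786 for Plat, 0.17 for Mmp2 and -0.0484 for Timp3. For the difference between populations in Timp2 the block gave 0.0788 (P16 shRNA) and -0.19 (P16).

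Leaving out 1 library at a time turned a sign within these ranges: with P16 shRNA in Cd31+ cells Plat -0.0803 to 0.16, Timp3 -0.31 to 0.0428 and Mmp2 -0.43 to 0.44; with P16 in Cd31+ cells Plau -0.0900 to 0.66, Mmp13 -0.77 to 0.49, Timp3 -0.46 to 0.20, Plat -0.12 to 0.12, Mmp2 -0.16 to 0.38, Mmp3 -1.29 to 2.04 and Mmp14 -0.14 to 0.22. With P16 shRNA in Cd146+ cells they were Mmp3 -1.54 to 1.46 and Mmp14 -0.0166 to 0.44, with P16 Timp1 -0.22 to 0.58, and for the difference of P16 shRNA effects Mmp13 -1.63 to 0.22 and Timp2 -0.65 to 0.0410. With 3 libraries a group, and few reads for Mmp13 and in part for Mmp3, small changes of these genes were not detectable.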
